A study of Mus musculus with 6 samples.

Results

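The vomeronasal receptor genes of the mouse are the 2 families Vmn1r and Vmn2r, and their clusters were examined for 3 repressive histone marks in embryonic stem cells (ESCs). Members were all genes of the NCBIM37 annotation on an autosome whose symbol starts with Vmn1r or Vmn2r, which gave 435 of 34653 autosomal genes. Of these, 256 belonged to Vmn1r, with 203 protein-coding genes and 53 pseudogenes, and 179 to Vmn2r, with 124 protein-coding genes, 52 pseudogenes and 3 processed transcripts. The genes overlapped 2545 tiles of 2 kb among 1236182 autosomal tiles, 551 over Vmn1r and 1994 over Vmn2r, and no tile was shared by both families. Genes less than 200 kb apart were merged into 51 clusters, numbered here from 1 to 51 along the genome. Of the clusters, 18 held Vmn1r genes alone, 29 held Vmn2r genes alone and 4 held both. A further 2 receptor genes on other chromosomes were left out.

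The marks H3K9me2, H3K27me3 and H3K9me3 were profiled by ChIP-seq in 2 genotypes, and every combination of mark and genotype has 1 library. Dicer KO ESCs lack Dicer, the ribonuclease that cuts double-stranded RNA into small RNAs. In Dicer KO/Dnmt1 cKO ESCs (the cKO in short), Dnmt1, the enzyme that copies CpG methylation onto the new DNA strand, had been deleted as well, so the loss of Dicer is shared by all 6 libraries. The labels give the strain as E14, whereas the methods derive the ESC lines by CRISPR/Cas9 from ESCs of strain C57BL/6 with a loxP-flanked Dnmt1, and the labels give no time since the deletion. Copies of receptor genes that differ between strains were not examined. The question addressed here is how the 3 marks lie over these gene families in cells without Dicer, and what changes when Dnmt1 is lost too.

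Vomeronasal receptors are G protein-coupled receptors that detect pheromones in sensory neurons of the vomeronasal organ. Vmn1r receptors couple to the G protein subunit encoded by Gnai2 and are made from a single coding exon, while Vmn2r receptors couple to the subunit encoded by Gnao1, carry a large extracellular domain and are made from several exons. Both families grew by repeated tandem duplication, so that neighbouring genes can be nearly identical, and they are not known to act in ESCs. H3K9me2 and H3K9me3 mark silent chromatin and repeats, and H3K27me3 is laid down by Polycomb repressive complexes.

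Sequences of 4 stretches show features of these genes that are described with the results, few CG dinucleotides and sequence shared between genes. Whether levels go with the number of CG dinucleotides was not examined. The sequences were read from NCBIM37 on the strand of the gene, 5′ to 3′, and capitals mark CG dinucleotides. The first pair shows 150 bases before and 150 bases after the annotated start of the gene of each family with the highest H3K9me3 level among genes with at least 100 reads, Vmn1r215 (chr13:23167462-23167761, plus strand, 1 CG) and the pseudogene Vmn2r-ps80 (chr7:93147947-93148246, minus strand, 0 CG). The second pair shows exonic stretches shared by many receptor genes and lying here in tiles without a read in any of the 6 libraries. The Vmn1r stretch, of 51 bases, is given at Vmn1r93 (chr7:20723806-20723856, minus strand) and the Vmn2r stretch, of 52 bases, at Vmn2r33 (chr7:7514523-7514574, minus strand).
Vmn1r215 start: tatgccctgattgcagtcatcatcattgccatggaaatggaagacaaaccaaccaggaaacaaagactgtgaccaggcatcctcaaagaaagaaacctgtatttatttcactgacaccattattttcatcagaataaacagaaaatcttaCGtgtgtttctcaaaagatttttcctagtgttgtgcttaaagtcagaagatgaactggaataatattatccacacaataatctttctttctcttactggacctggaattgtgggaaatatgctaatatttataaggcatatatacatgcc
Vmn2r-ps80 start: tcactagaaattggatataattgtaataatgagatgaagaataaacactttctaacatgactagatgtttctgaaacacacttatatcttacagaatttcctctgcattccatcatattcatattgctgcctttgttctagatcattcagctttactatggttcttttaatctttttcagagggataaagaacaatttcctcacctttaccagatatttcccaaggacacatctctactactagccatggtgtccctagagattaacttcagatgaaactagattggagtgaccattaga
Vmn1r93 shared stretch: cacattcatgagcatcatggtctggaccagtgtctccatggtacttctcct
Vmn2r33 shared stretch: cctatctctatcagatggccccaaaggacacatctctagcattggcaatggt

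The Vmn1r stretch was identical in 49 Vmn1r genes and was found at 69 places in the assembly, both strands counted. Of its 49 places in exons of Vmn1r genes, 22 lay in tiles without reads in all 6 libraries. The Vmn2r stretch was identical in 27 Vmn2r genes and was found at 47 places, and 6 of its 27 exonic places lay in such tiles. Neither stretch holds a CG dinucleotide. Across all receptor tiles there were 0.501 CG per 100 bases over Vmn1r and 0.452 over Vmn2r, compared with 0.851 over all autosomal tiles. GC content was 38.7% over Vmn1r and 36.9% over Vmn2r, against 41.9% over the autosomes.

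The libraries held between 16834940 and 27162045 reads in 1327469 tiles, with a median of 13 to 18 reads per tile. A level is the reads per tile divided by the mean reads per tile of the same library over the genome, so that 1 is the genome mean. A change is the log2 of the cKO over the Dicer KO, each taken per read of its library. Intervals are 95% intervals and cover counting error only, because there is no replicate and PCR copies of a fragment are not separate molecules. No p-value is given for the same reason. None of the 6 libraries is an input, so a level includes whatever sets the number of mappable fragments at a place. Over the targeted genes, Dnmt1 had 109 H3K9me2 reads in Dicer KO cells and 199 in cKO cells, and Dicer1 had 322 and 456. Tile by tile, with the 3 marks summed, all tiles of both genes held reads in both genotypes. The lowest change was that of a Dnmt1 tile (chromosome 9 from 20744001 to 20746000), with 8 reads in Dicer KO cells and 2 in cKO cells and an interval that included 0. A deletion shorter than a tile would not show in this way, and the labels were not settled by these reads.

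Over the receptor families as a whole, all 3 marks stood below the genome mean and H3K27me3 was the lowest of them. In the Dicer KO, the Vmn1r genes had a level of 0.769 for H3K9me2 (0.749 to 0.790), 0.629 for H3K27me3 (0.614 to 0.644) and 0.728 for H3K9me3 (0.709 to 0.748). In the cKO they had 0.741 for H3K9me2, 0.617 for H3K27me3 and 0.664 for H3K9me3. The Vmn2r genes stood higher, with 0.852, 0.682 and 0.881 for the same marks in the Dicer KO, against 0.824, 0.675 and 0.820 in the cKO. Intervals of the families did not overlap for any of the 6 libraries, but the order turned without 1 cluster of Vmn1r genes with little unique sequence (cluster 23, described further on). Without cluster 23 the Vmn1r levels in the Dicer KO were 1.04, 0.847 and 0.978, all above those of Vmn2r. Relative to the mean of the other marks in the Dicer KO, H3K27me3 reached 0.840 over Vmn1r and 0.787 over Vmn2r. This ratio was 0.799 between the receptor genes, 0.814 in the 200 kb beside the clusters and 0.872 over Olfr genes, and over autosomal protein-coding genes it was 0.977.

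Over all of their tiles, other chemosensory receptor genes had higher levels than both families in these libraries. Olfr genes, which encode the olfactory receptors, had levels of 1.27, 1.02 and 1.08 in the Dicer KO for H3K9me2, H3K27me3 and H3K9me3. Tas2r genes, which encode bitter taste receptors, had 1.24, 1.15 and 1.12. Protein-coding genes of the autosomes lay near the mean for all 3 marks, between 1.01 and 1.05. In tiles of mostly unique sequence, described further on, the Dicer KO levels of Olfr and both families lay closer together. They were 1.37, 1.10 and 1.15 over Olfr, 1.32, 1.08 and 1.2 over Vmn1r and 1.27, 0.998 and 1.22 over Vmn2r. The differences between these sets were not tested.

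**Figure D1:**
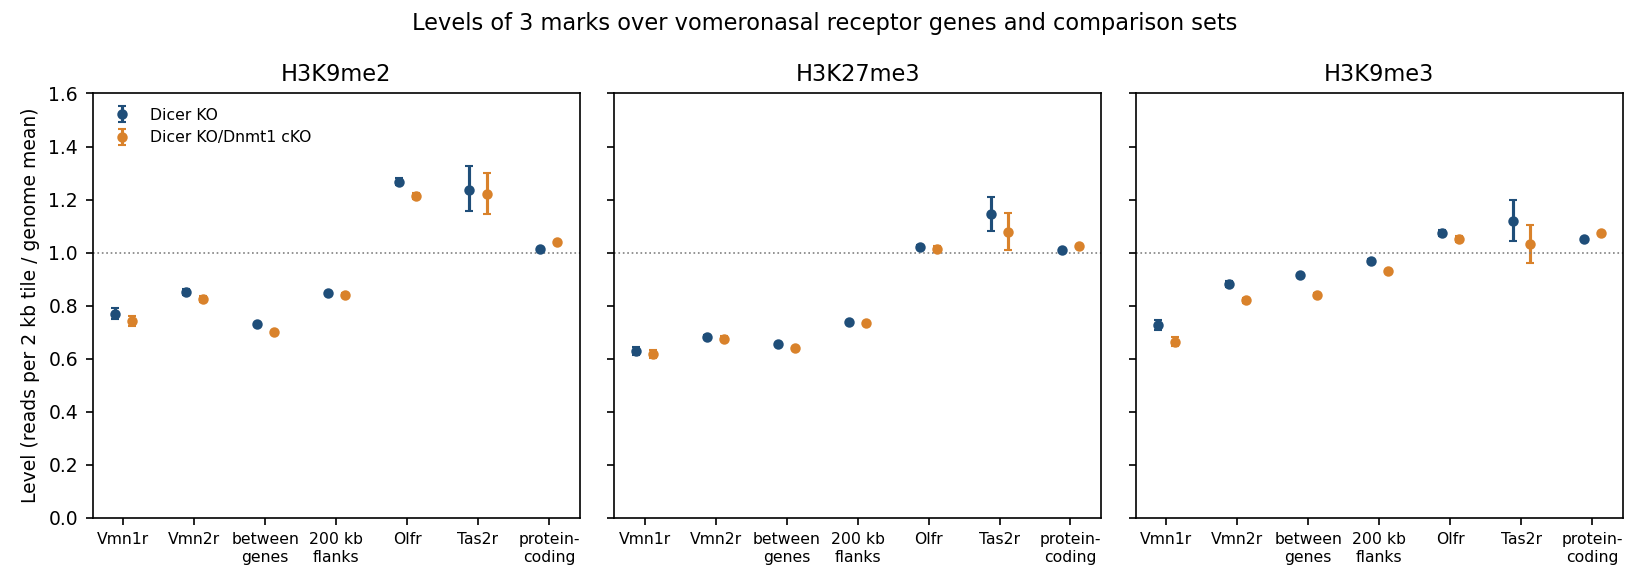
Level of each mark (y axis, reads per 2 kb tile over the library's genome mean) for Vmn1r and Vmn2r genes, the stretches between receptor genes inside clusters, the 200 kb beside clusters, Olfr, Tas2r and autosomal protein-coding genes, with bars for 95% counting intervals and the dotted line at the genome mean. Vmn1r and Vmn2r lie below 1 in all 6 libraries, with Vmn1r H3K27me3 at 0.629 in the Dicer KO, while Olfr lies above 1.

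Tiles without any read were unevenly spread over the clusters. Over the 51 clusters the median share of tiles empty in all 6 libraries was 0%, and the highest was 76.2%. In all 6 libraries together, 23.8% of Vmn1r tiles (Wilson interval 20.4% to 27.5%) and 7.82% of Vmn2r tiles (6.72% to 9.08%) held no read, against 0.445% of Olfr tiles, 1.25% of tiles over protein-coding genes and 4.52% of all autosomal tiles. Of the 131 empty Vmn1r tiles 99 lay in cluster 23 and the other 32 in cluster 24 beside it. Without cluster 23, 8.00% of Vmn1r tiles were empty, and outside these clusters no Vmn1r tile was. Of the 53 Tas2r tiles 0 were empty, which by Wilson's interval allows a share of up to 6.76%. In single libraries, between 26.5% and 27.8% of Vmn1r tiles and between 11.1% and 12.3% of Vmn2r tiles held no read. On the autosomes, 39110 of the 55906 empty tiles consisted of undetermined bases only. Among the 287 empty receptor tiles this held for 24, all over Vmn1r genes, and 261 had no undetermined base. A total of 25 Vmn1r genes and 6 Vmn2r genes had no read in any library, and all of these genes had under 10% unique windows.

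A window is a stretch of 50 bases, and it is unique if it occurs once in the reference, both strands counted. Of the windows, 58.1% were unique over Vmn1r and 64.7% over Vmn2r, compared with 89.9% over Olfr, 97.2% over Tas2r and 88.8% in every 200th autosomal tile. Reads of low mapping quality, among them reads that match several places equally well, had been discarded by the authors. The part of this filter in the levels was not tested, but the levels went with the share of unique windows. Both families together had H3K9me3 levels in the Dicer KO of 0.042 in the 430 tiles with under 10% unique windows, 0.463 in the 404 tiles with 10 to 50%, 1.08 in the 722 tiles with 50 to 90% and 1.21 in the 965 tiles with at least 90%. Empty tiles made up 61.2% of the first class, and 0 tiles were empty in the other 3 classes. The same order held for H3K9me2, which went from 0.032 to 1.28 across the classes, and for H3K27me3, which went from 0.031 to 1.01.

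In the tiles with at least 90% unique windows, the families stood near or above the genome mean. In Dicer KO cells Vmn1r had levels of 1.32 (H3K9me2), 1.08 (H3K27me3) and 1.2 (H3K9me3), which were 1.26, 1.05 and 1.08 in the cKO. Vmn2r had 1.27, 0.998 and 1.22, which were 1.23, 0.976 and 1.12 in the cKO. Autosomal tiles of the same class, sampled at every 200th tile, had 1.17, 1.2 and 1.07 in the Dicer KO. In this class Vmn1r stood above Vmn2r for H3K9me2 and H3K27me3, the reverse of the order over all tiles. H3K27me3 was the lowest mark over both families in mostly unique sequence, as it was over Olfr tiles of the class (1.37, 1.10 and 1.15 in the Dicer KO), while it was the highest of the 3 in the autosomal sample.

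**Figure D2:**
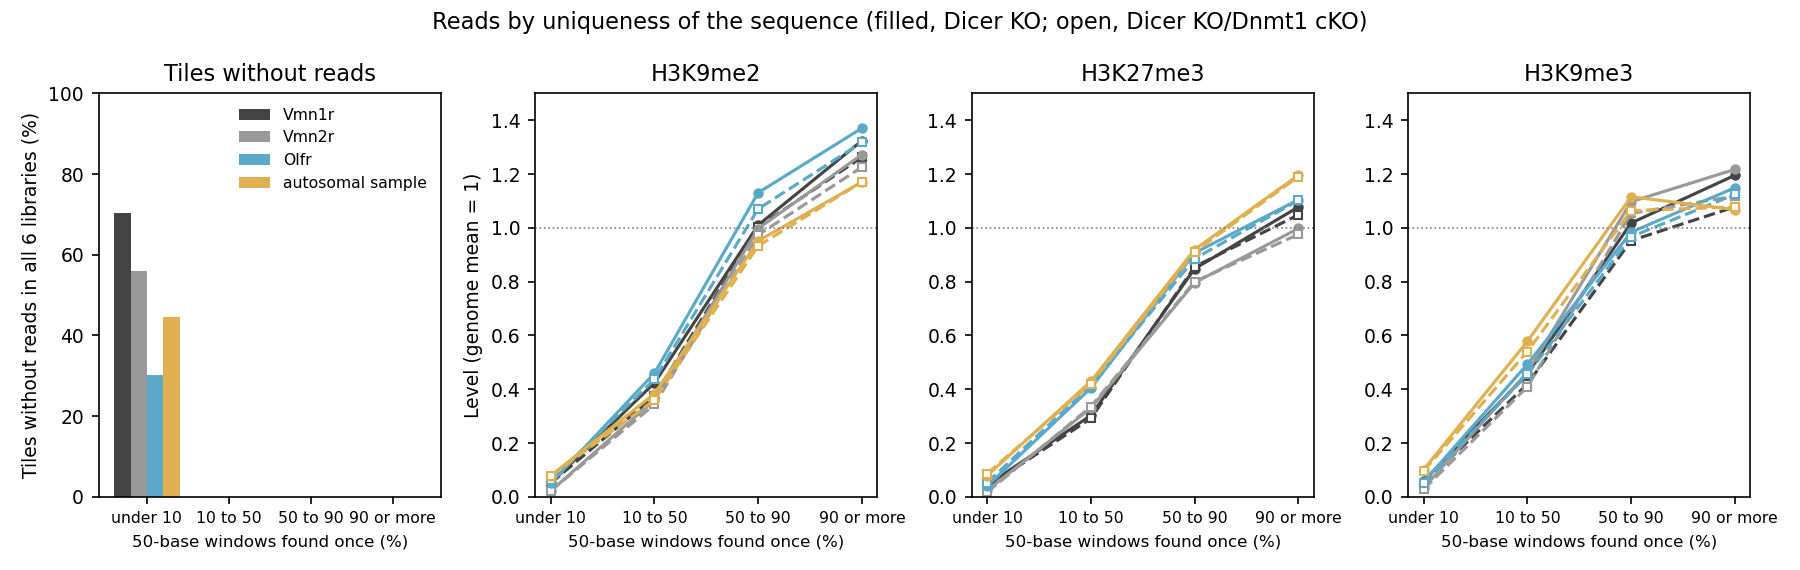
The left panel gives the share of tiles without reads in all 6 libraries (y axis, %) and the others the level of each mark (y axis, genome mean 1), by the share of 50-base windows found once in the reference (x axis, %), for Vmn1r, Vmn2r, Olfr and every 200th autosomal tile. Filled points with solid lines stand for the Dicer KO and open points with dashed lines for the cKO. Apart from tiles of undetermined bases only, empty tiles of the receptor families occur in the lowest class alone, and their levels of all 3 marks climb from class to class.

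Receptor tiles are also poor in GC, so autosomal tiles of like GC content were set beside them. The middle range of GC content over receptor tiles, from quartile to quartile, was 34.5% to 39.7%. Within it, the 451 receptor tiles with at least 90% unique windows had Dicer KO levels of 1.33 for H3K9me2, 1.05 for H3K27me3 and 1.24 for H3K9me3. The 1291 sampled autosomal tiles of the same range and class had 1.23, 1.01 and 1.07. H3K27me3 was thus 1.05 against 1.01 where GC content and uniqueness were alike, and H3K9me3 was 1.24 against 1.07. H3K27me3 was the lowest of the 3 marks in both sets. In the cKO the H3K9me3 levels were 1.13 over receptor tiles and 1.04 over sampled tiles. Olfr tiles of this range and class stood at 1.14 for H3K9me3 in the Dicer KO and 1.11 in the cKO.

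Within narrower classes of GC content, H3K9me3 in the Dicer KO was higher over receptor tiles than over sampled autosomal tiles in each of the 5 classes. Under 34% GC it was 1.03 against 0.953, and at 38 to 40% it was 1.30 against 1.10. At 40% GC or more it was 1.47 over 156 receptor tiles and 1.08 over 2915 sampled tiles, but this class is wide and its mean GC content was 42.3% for receptor tiles and 45.3% for sampled tiles.

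**Figure D3:**
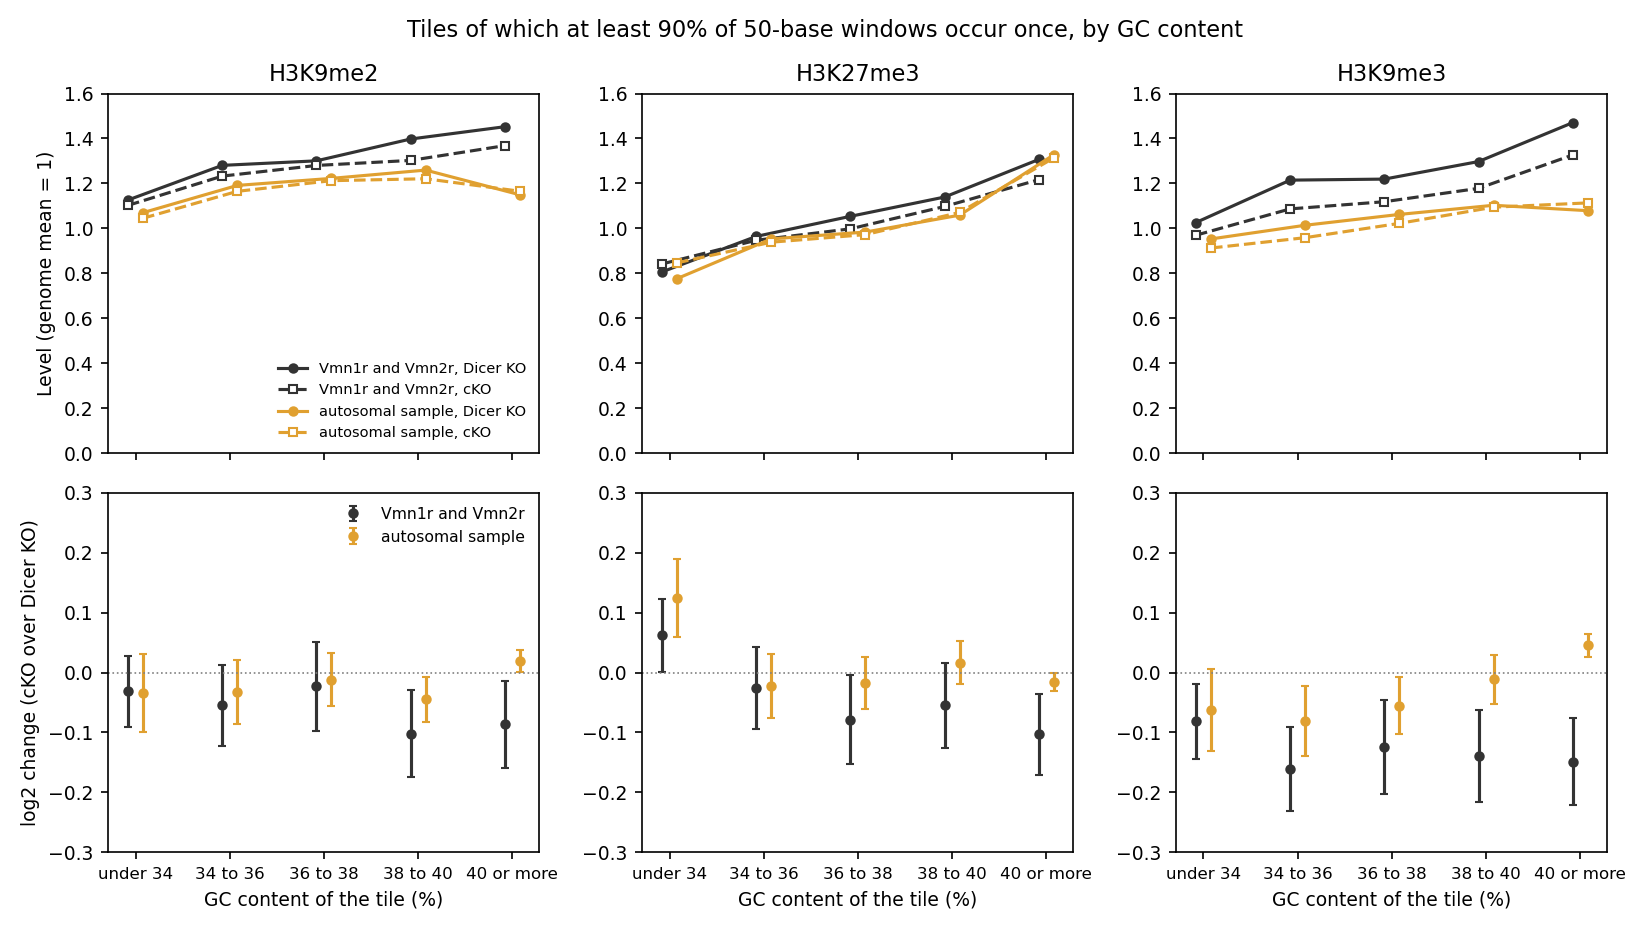
Level of each mark (upper row, genome mean 1) and log2 change between genotypes with 95% counting intervals (lower row) by GC content of the tile (x axis, %), for Vmn1r and Vmn2r tiles and for every 200th autosomal tile, all with at least 90% unique windows. Filled points with solid lines in the upper row are the Dicer KO and open points with dashed lines are the cKO. The H3K9me3 level is above that of the autosomal sample in all 5 classes, and its change is the lower of the pair in all 5.

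The clusters varied widely in all marks. H3K9me3 levels in the Dicer KO ranged over the 51 clusters from 0.02 to 1.5 with a median of 1.02, H3K9me2 levels from 0.02 to 1.70 with a median of 1.03, and H3K27me3 levels from 0.02 to 1.5 with a median of 0.78. A level above the genome mean in the Dicer KO was found in 28 clusters for H3K9me3, in 26 for H3K9me2 and in 10 for H3K27me3. H3K27me3 was the lowest of the 3 marks in 38 of the 51 clusters in the Dicer KO and in 39 in the cKO. Of the 15 clusters with at least 10 genes, this was so in 14 and in 13. The highest mark was H3K9me2 in 25 and H3K9me3 in 24 of the 51 clusters in the Dicer KO.

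Of the 15 large clusters, 4 stood apart by their low levels, all of them on chromosome 7. Cluster 23 (chromosome 7 from 20686507 to 22400004, Vmn1r91 to Vmn1r132) held most Vmn1r genes, 39, with 5.01% unique windows, 65.6% empty tiles and 16.6% undetermined bases. Its levels in the Dicer KO were 0.059 for H3K9me2, 0.050 for H3K27me3 and 0.067 for H3K9me3. Cluster 24 beside it (22617370 to 24014777, 22 Vmn1r genes) had 2.92% unique windows, 76.2% empty tiles and an H3K9me3 level of 0.094. Cluster 16 (7184038 to 8006572, 14 Vmn2r genes) had 11.4% unique windows and an H3K9me3 level of 0.141. Cluster 19 (10339985 to 11334887, 6 Vmn1r and 7 Vmn2r genes) was intermediate, with 37.2% unique windows and 0.500.

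The other 11 large clusters had between 64.9% and 95.5% unique windows, and their levels lay closer together. The highest H3K9me3 levels among them were found in cluster 29 (chromosome 7 from 48923349 to 49686094, 11 Vmn2r genes), with 1.30 (Dicer KO) and 1.21 (cKO). Cluster 31 (chromosome 7 from 91958938 to 93394711), with 36 Vmn2r genes the largest of that family, had 1.21 and 1.06. Cluster 35 (chromosome 13 from 22179747 to 23342192, 36 Vmn1r genes) had 1.13 and 0.984, and cluster 15 (chromosome 7 from 5097820 to 5962612, 16 Vmn1r genes and 1 Vmn2r gene) had 1.12 and 1.09. The lowest H3K9me3 level of the 11 was that of cluster 4 (chromosome 3 from 63885564 to 64648687, 11 Vmn2r genes), with 0.901 and 0.860. The others were cluster 7 (chromosome 5 from 109226212 to 109882406), clusters 9 and 13 (chromosome 6 from 56906460 to 57382596 and from 89648711 to 90220047), clusters 20 and 25 (chromosome 7 from 12238479 to 13318454 and from 24271394 to 24840710) and cluster 44 (chromosome 17 from 20166389 to 21131650). These 6 had Dicer KO levels of H3K9me3 between 0.939 and 1.06. H3K27me3 exceeded the genome mean in clusters 29 and 44 alone among the 15, with 1.06 in each in the Dicer KO.

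**Figure D4:**
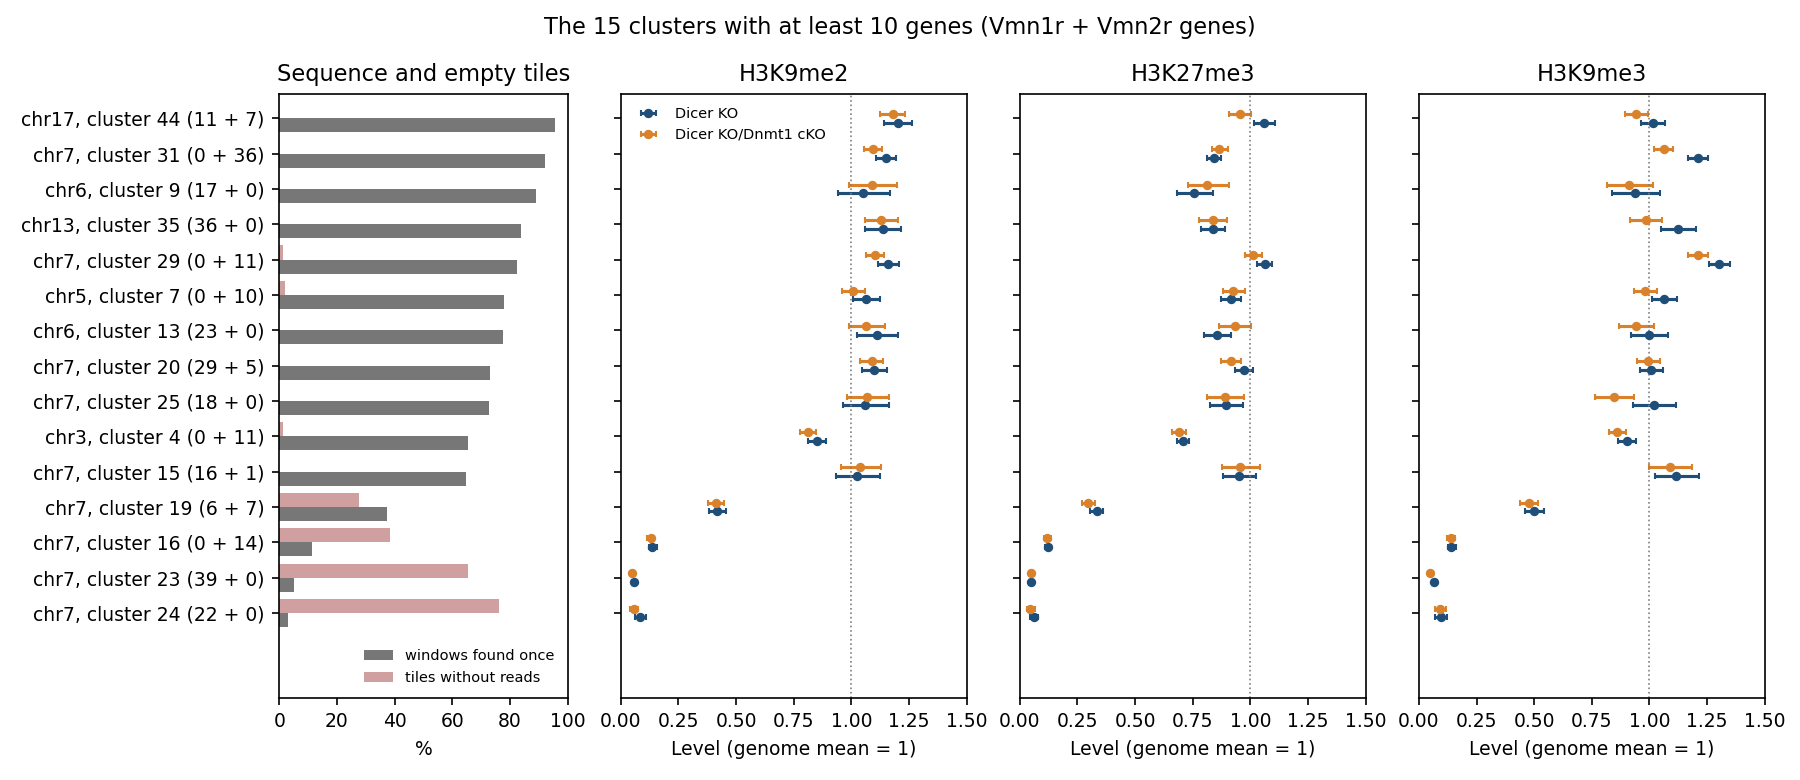
The 15 clusters with at least 10 genes, ordered by the share of 50-base windows found once, with the numbers of Vmn1r and Vmn2r genes in brackets. The left panel gives the shares of unique windows and of tiles without reads (x axis, %) and the others the level of each mark (x axis, genome mean 1) with 95% counting intervals in the Dicer KO and the cKO. The 4 clusters with the fewest unique windows lie at or below 0.500 in every mark, and the other 11 lie between 0.691 and 1.30.

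Between the genotypes, H3K9me3 differed most. Over Vmn1r its log2 change was −0.13 (−0.19 to −0.08), from 5487 reads in the Dicer KO to 5216 in the cKO. Over Vmn2r it was −0.10 (−0.13 to −0.08), from 24031 to 23317 reads. H3K9me2 changed by −0.05 in each family, with intervals of −0.11 to −0.00 for Vmn1r and −0.07 to −0.02 for Vmn2r. The change of H3K27me3 was −0.03 (−0.08 to 0.02) over Vmn1r and −0.01 (−0.04 to 0.01) over Vmn2r, so both intervals included 0. Over whole clusters, genes and the stretches between them together, the H3K27me3 intervals were −0.07 to −0.03 for Vmn1r and −0.03 to −0.00 for Vmn2r and excluded 0. Without cluster 23, the H3K9me2 interval of Vmn1r was −0.10 to 0.00 and included 0. Over autosomal protein-coding genes the changes were 0.04 (H3K9me2), 0.02 (H3K27me3) and 0.03 (H3K9me3), and over Olfr genes they were −0.06, −0.01 and −0.03. Over Tas2r genes, which cover 53 tiles, they were −0.02, −0.09 and −0.12, and the H3K9me3 interval of −0.26 to 0.02 held the values of both Vmn families.

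The lower H3K9me3 was also seen in unique sequence and within the range of GC content. In tiles with at least 90% unique windows the change was −0.13 for both families together, while sampled autosomal tiles of that class changed by 0.01. With 50 to 90% unique windows the receptor and sampled tiles changed alike, by −0.06 and −0.07. With 10 to 50% they changed by −0.17 (−0.25 to −0.09) and −0.10 (−0.18 to −0.01), and under 10% both intervals included 0. Tiles compared by GC content all had at least 90% unique windows. Within the middle range of GC content the H3K9me3 change was −0.14 over receptor tiles (−0.18 to −0.09), −0.04 over sampled autosomal tiles (−0.07 to −0.01) and −0.04 over Olfr tiles (−0.08 to −0.01). The autosomal sample itself changed with GC content, from −0.06 under 34% to 0.05 at 40% or more, so the change moved with GC content too. In each of the 5 classes of GC content the change was lower over receptor tiles, from −0.08 under 34% to −0.16 at 34 to 36%, but the intervals of receptor and sampled tiles overlapped in the 3 classes under 38%.

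Among the 15 large clusters, the H3K9me3 change was below 0 in all 15, and the interval lay wholly below 0 in 7. In cluster 31, with 2927 and 2679 reads in the Dicer KO and the cKO, the change was −0.19 (−0.26 to −0.11). It was −0.19 in cluster 35 (−0.33 to −0.05), −0.27 in cluster 25 (−0.46 to −0.08) and −0.11 in cluster 29 (−0.18 to −0.04). The lowest change, −0.42 in cluster 23, rested on 139 and 108 reads. Over all 51 clusters the change was below 0 in 42, with 13 intervals wholly below 0 and 1 wholly above, the latter in a cluster of 1 gene with 2 and 11 reads. For H3K9me2 the change was below 0 in 34 of 51 clusters, with 2 intervals wholly below and 2 wholly above 0. For H3K27me3, 27 of the 50 clusters with reads in both libraries were below 0, with 3 intervals wholly below and 4 wholly above. The only large cluster with an H3K27me3 interval away from 0 was cluster 44, at −0.15 (−0.24 to −0.06).

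**Figure D5:**
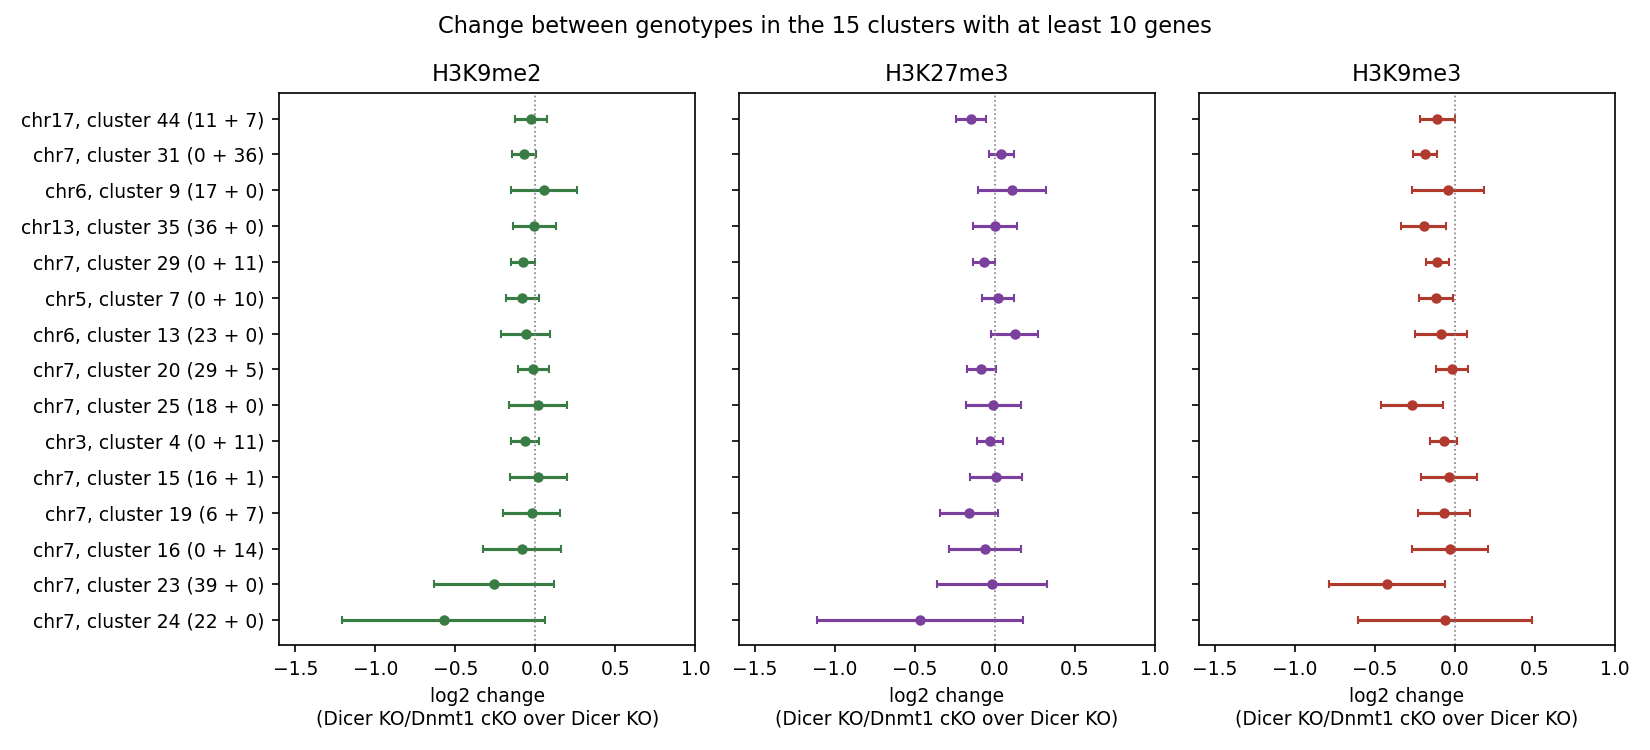
Log2 change between the genotypes (x axis) with 95% counting intervals for each mark in the 15 clusters with at least 10 genes, in the order of the share of unique windows and with the numbers of Vmn1r and Vmn2r genes in brackets. H3K9me3 lies below 0 in all 15 clusters, with 7 intervals wholly below 0, and the bars are widest for clusters 23 and 24, which hold few reads.

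Single genes were counted as changed if they held at least 50 reads of a mark over both libraries and differed at least 1.5-fold. H3K9me3 fell in 13 of the 204 receptor genes with enough reads, or 6.37%, against 1.68% of autosomal genes. It rose in 3, or 1.47%, against 2.28% of autosomal genes. Of the 13 genes, 8 belonged to Vmn1r and 5 to Vmn2r, they lay in 12 clusters, and 8 had at least 90% unique windows. They held between 54 and 285 reads with a median of 62, and 11 of their intervals lay wholly below 0. The autosomal genes were not matched to the receptor genes for reads, and few reads widen the spread of changes. H3K9me2 rose in 5 and fell in 6 of 215 receptor genes, or 2.33% and 2.79%, against 5.00% and 1.46% of autosomal genes, and the 6 were all Vmn1r genes. For H3K27me3, 8 rose and 8 fell among 223 receptor genes, or 3.59% each, against 5.57% and 3.33% of autosomal genes. With at least 200 reads 1 gene remained for a fall of H3K9me3, Vmn2r66, and 1 for a rise of H3K27me3, Vmn2r95. The share of autosomal genes past 1.5-fold at that cut is not given here, so these 2 genes are a description only.

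Across all receptor genes with at least 50 reads, and not only those past 1.5-fold, H3K9me3 was lower in the cKO in 147 of 204. The median change was −0.19 over 73 Vmn1r genes and −0.11 over 131 Vmn2r genes, and over all autosomal genes with enough reads it was 0.03. H3K9me2 was lower in 126 of 215 receptor genes and H3K27me3 in 116 of 223. Their medians over both families were −0.05 and −0.01, compared with 0.10 and 0.05 over autosomal genes. The share of autosomal genes that were lower is not given here. The autosomal medians are above 0 for all 3 marks, so at least as many autosomal genes were higher as lower. Overlapping entries, such as Vmn2r-ps11 and Vmn2r7, share tiles and were counted separately. Genes without enough reads, which include most of the repeated copies, enter none of these counts.

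Levels of single genes reached well above the genome mean in some members. In the Dicer KO, 24 of the 256 Vmn1r genes and 12 of the 179 Vmn2r genes had an H3K9me3 level of at least 1.5, or 9.38% and 6.70%, against 6.53% of autosomal genes. In the cKO, 16 and 5 did, against 6.87% of autosomal genes. For H3K9me2 35 Vmn1r genes and 9 Vmn2r genes reached 1.5 in the Dicer KO, or 13.7% and 5.03%, against 9.11%. In the cKO these numbers were 41 and 2, against 8.00%. H3K27me3 reached 1.5 in 16 Vmn1r genes and 1 Vmn2r gene in the Dicer KO, or 6.25% and 0.559%, against 22.5% of autosomal genes, and in 9 and 2 in the cKO, against 21.7%. A Vmn1r gene covers few tiles and so few reads, which widens the spread of its levels. Genes with little unique sequence count in these shares too, and 32 Vmn1r and 9 Vmn2r genes had no H3K27me3 read in the Dicer KO. Of the 109 Vmn1r genes with at least 90% unique windows, 34 (H3K9me2), 15 (H3K27me3) and 17 (H3K9me3) reached 1.5 in the Dicer KO. Of the 60 such Vmn2r genes, 9, 1 and 7 did. No autosomal share for that class of uniqueness is given here.

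Genes were named if they held at least 100 reads of a mark over both libraries. That left 6 Vmn1r genes for H3K9me2, 15 for H3K27me3 and 7 for H3K9me3, against 107 or 108 Vmn2r genes for each mark. The highest H3K9me3 level was that of Vmn1r215 (ENSMUSG00000056882.2, chromosome 13 from 23167612 to 23168659), whose start is printed above, with 81 reads and a level of 2.96 in the Dicer KO and 67 reads and 2.35 in the cKO. Vmn1r65, at the end of cluster 15, had 2.19 and 2.36. In the other family the pseudogene Vmn2r-ps80 (ENSMUSG00000092529.1, chromosome 7 from 93146493 to 93148096) had 2.27 and 1.82 with 62 and 52 reads. Vmn2r-ps54, a processed transcript of 31 tiles, had 1.66 and 1.45 with 703 and 640 reads. The first 3 of these genes had intervals of the change that included 0.

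For H3K9me2 the highest levels were those of Vmn1r205 (2.44 in the Dicer KO and 1.52 in the cKO) and Vmn1r85 (2.01 and 1.59). Among Vmn2r genes they were found in the pseudogene Vmn2r-ps53 (1.59 and 1.39) and in Vmn2r93 (1.498 and 1.48). For H3K27me3 the pseudogene Vmn1r-ps46 had 1.83 and 1.78, and Vmn1r181 had 1.73 and 1.84. Vmn1r181 is among the 49 genes that hold the shared Vmn1r stretch, but 95.2% of the windows of its tiles were unique. Vmn2r-ps53 led its family for H3K27me3 as well, with 1.46 and 1.33, followed by Vmn2r59 with 1.32 and 1.2.

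The largest differences between genotypes among named genes were found in H3K9me3. It fell 1.5-fold or more in Vmn2r45 (ENSMUSG00000090662.2), from 65 to 38 reads with a change of −0.83 (−1.41 to −0.26), and in Vmn2r66 (ENSMUSG00000072241.3, chromosome 7 from 92143155 to 92160530), from 172 to 113 reads with a change of −0.67 (−1.01 to −0.32). The tiles of Vmn2r66 had 98.4% unique windows, and Vmn2r45 was the less unique of the pair, with under 50%. Vmn2r69, which lies in cluster 31 as Vmn2r66 does, had −0.55 (−1.05 to −0.05). H3K9me3 rose in Vmn2r28 (ENSMUSG00000066820.5), the only Vmn2r gene of cluster 15, from 42 to 76 reads with a change of 0.80 (0.25 to 1.34). The next highest changes, 0.37 in Vmn1r45 and 0.32 in Vmn2r5, had intervals that included 0.

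H3K27me3 rose 1.5-fold or more in Vmn2r95 (ENSMUSG00000091631.1, chromosome 17 from 18561068 to 18589288), from 157 reads and a level of 0.512 to 199 reads and 0.828, a change of 0.69 (0.39 to 1.00). The change was 0.56 in Vmn2r22 and 0.46 in Vmn2r15, and the lowest changes were −0.43 in Vmn2r4, −0.39 in Vmn2r30 and −0.38 in Vmn1r235. H3K9me2 fell in Vmn1r205 (ENSMUSG00000064243.2, chromosome 13 from 22683769 to 22684869), from 62 to 47 reads with a change of −0.68 (−1.23 to −0.14). The other low changes of H3K9me2, −0.38 in Vmn2r113 and −0.36 in Vmn2r30, had intervals that included 0. Its highest changes were 0.37 in Vmn2r89, 0.35 in Vmn2r104 and 0.32 in Vmn2r14, and of these the interval excluded 0 in Vmn2r104 only (0.03 to 0.66). These genes are the ends of lists of more than 100 genes, and their values are given as a description.

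The tile with most reads over both libraries was a different one for each mark. The tile with most H3K9me3 reads lay in Vmn2r79 (chromosome 7 from 94172001 to 94174000), with 58 reads and a level of 4.24 in the Dicer KO and 40 reads and 2.80 in the cKO, while H3K27me3 there was 0.684 and 0.312. The tile with most H3K27me3 reads lay in Vmn2r59 (chromosome 7 from 49270001 to 49272000), with 69 and 42 reads and levels of 3.37 and 2.62. The tile with most H3K9me2 reads lay in Vmn2r27 (chromosome 6 from 124172001 to 124174000) and had 19 reads and a level of 1.5 in the Dicer KO against 48 reads and 3.11 in the cKO, and H3K27me3 in this tile was 1.17 and 2.31.

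Low levels were found between the genes and beside the clusters as well as over the genes. Tiles between receptor genes inside clusters had Dicer KO levels of 0.729 (H3K9me2), 0.656 (H3K27me3) and 0.914 (H3K9me3), with 14.8% of tiles empty and 54.8% of windows unique. The 200 kb on either side of the clusters had 0.846, 0.739 and 0.970, with 7.62% of tiles empty and 71.7% of windows unique. The change of H3K9me3 was −0.12 between the genes (−0.13 to −0.10) and −0.06 in the flanks (−0.07 to −0.05), so both intervals lay below 0 outside the genes too. Along the 30 ends of the large clusters, in steps of 20 kb from 200 kb outside to 200 kb inside, H3K9me3 in the Dicer KO ran from 0.768 to 0.946 outside and from 0.854 to 0.996 inside. At the boundary it was 0.839 in the last step outside and 0.863 in the first inside.

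The median levels of pseudogenes and protein-coding genes lay close together for H3K9me3. The median H3K9me3 level in the Dicer KO was 0.877 over 203 protein-coding and 0.951 over 53 pseudogenes of Vmn1r, and 0.971 over 124 and 0.998 over 52 of Vmn2r. All 9 Vmn2r genes with an H3K9me2 level of at least 1.5 in the Dicer KO were pseudogenes, as were the 2 in the cKO. Of all autosomal genes, 9.11% and 8.00% reached that level. The protein-coding gene Vmn2r93 lay just under it in the Dicer KO, at 1.498. Only 20 of the 52 Vmn2r pseudogenes held at least 50 H3K9me2 reads, against 105 of the 124 protein-coding genes, and few reads widen the spread. Median H3K9me2 levels of Vmn2r pseudogenes and protein-coding genes were 1.14 and 0.992 in the Dicer KO. In the cKO they were 0.923 and 0.969. H3K27me3 medians in the Dicer KO were 0.733 and 0.831 for protein-coding genes and pseudogenes of Vmn1r, and 0.713 and 0.586 for those of Vmn2r.

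Genes that serve the vomeronasal system without being members of the families had higher H3K27me3 in many cases. Of 13 genes for the development and wiring of its neurons, 9 had an H3K27me3 level of at least 1.5 in each genotype, with medians of 3.07 and 2.85, where 22.5% (Dicer KO) and 21.7% (cKO) of autosomal genes reached that level. Lhx2, a transcription factor of olfactory neurons, had 6.02 in the Dicer KO and 4.14 in the cKO. Of 10 genes of signal transduction, 6 in the Dicer KO and 5 in the cKO had an H3K27me3 level of at least 1.5, beside the same 22.5% and 21.7%. Gnao1, which couples to Vmn2r receptors, had 2.31 and 2.24, whereas Gnai2, which couples to Vmn1r receptors, had 0.298 and 0.363. Trpc2, the cation channel of vomeronasal neurons, had 0.953 and 0.866. In this list H3K9me3 fell at least 1.5-fold in 1 of 9 genes with enough reads, Omp, with a change of −0.65 whose interval included 0, beside 1.68% of autosomal genes, and H3K27me3 in 0 of 10 genes.

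Other receptor groups of the organ, the formyl peptide receptors and the H2-M molecules that accompany Vmn2r receptors, had H3K9me2 levels above the genome mean in most cases. Of 16 such genes, 10 had an H3K9me2 level of at least 1.5 in the Dicer KO and 6 in the cKO, with medians of 1.62 and 1.31, where 9.11% and 8.00% of autosomal genes reached that level. H3K9me2 fell at least 1.5-fold in 3 of the 15 with enough reads, beside 1.46% of autosomal genes, and rose in 0, beside 5.00%. The lowest change was −1.10 in Fpr-rs6 (−1.81 to −0.39), with 69 reads in all. H3K27me3 fell in 1 of 14, H2-M10.5, with a change of −0.75, beside 3.33% of autosomal genes, and H3K9me3 fell in 0 of 13.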

How the data were processed

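The study's methods name Trim Galore for trimming, Bowtie2 for mapping to NCBIM37, a minimum mapping quality and SeqMonk for quantitation. The table that the authors deposited gives, for each tile of 2 kb, a log2 value of its reads against those expected, although the methods state another tile size. Removal of duplicates in ChIP-seq is not given in the sources used here. Of 25 columns of values, 6 matched the labels and 19 were not used.

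Antilogs were whole multiples of 1 read per library (1 value in 1 library lay over 0.1 reads off), with empty tiles at 0.9 of a read, so reads per tile were recovered and no test for counts was run. Chromosome lengths matched the NCBIM37 reference, whose GENCODE annotation gave genes, biotypes and bounds. A gene takes every tile that it overlaps by at least 1 base. The members, the lists of other vomeronasal genes and the processing alternatives were chosen with earlier results of these data known.

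For each mark, named genes were the 2 of each family with the highest level over both genotypes and the 3 with the largest and 3 with the smallest change, among those with at least 100 reads. Clusters with at least 10 genes and the tile with most reads of each mark were named too, while Fpr-rs6, H2-M10.5, Omp, Lhx2, Gnao1, Gnai2 and Trpc2 were chosen from the lists after their values were seen. Results for 1 gene of these lists are not reported here. Comparison by GC content and by class of gene, and leaving out the largest cluster, were added after the data had been seen. Scripts ran in Python 3.11.15 with numpy 2.4.6, pandas 2.3.3, scipy 1.17.1, numba 0.67.0 and matplotlib 3.10.9 and were tested on simulated reads and planted copies.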

Additional observations from a re-analysis of the deposited data

How the results depend on the processing

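The direction of each family's change in each mark was the same under all alternatives tried, and no change left its own counting interval. Leaving out empty tiles removes no reads and so could not alter a change, only a level. Some intervals gained or lost 0. Over whole clusters the H3K27me3 interval was −0.07 to −0.03 for Vmn1r and −0.03 to −0.00 for Vmn2r, both without 0, and without cluster 23 that of H3K9me2 over Vmn1r was −0.10 to 0.00, with 0. For H3K9me3 the change lay between −0.15 and −0.11 over Vmn1r and between −0.12 and −0.09 over Vmn2r. The alternatives were a median log2 ratio of 0, whole clusters, protein-coding genes only, leaving out empty tiles, mostly unique tiles, dropping the top 0.1% of tiles by reads, and, chosen after seeing the data, leaving out the cluster with most genes of the family. Levels depended on the choice of tiles. The Dicer KO levels of H3K9me2, H3K27me3 and H3K9me3 over Vmn1r became 0.711, 0.647 and 0.828 over whole clusters, 0.751, 0.61 and 0.702 over protein-coding genes, 0.956, 0.782 and 0.905 without empty tiles, 1.32, 1.08 and 1.2 in mostly unique tiles and 0.779, 0.637 and 0.769 without the tiles with most reads. Over Vmn2r they became 0.788, 0.665 and 0.954 over whole clusters, 0.873, 0.702 and 0.894 over protein-coding genes, 0.876, 0.701 and 0.906 without empty tiles, 1.27, 0.998 and 1.22 in mostly unique tiles and 0.863, 0.691 and 0.931 without the tiles with most reads. The order of the families turned for H3K9me2 and H3K27me3 in mostly unique tiles and without empty tiles, and without cluster 23 for all 3 marks. Without cluster 23, Vmn1r levels were 1.04, 0.847 and 0.978, and 8.00% of the remaining Vmn1r tiles were empty in all 6 libraries. Those empty tiles all lay in cluster 24. Without cluster 31, Vmn2r levels were 0.823, 0.666 and 0.849. With at least 200 reads instead of 50, the receptor genes past 1.5-fold numbered 0 up and 0 down for H3K9me2 (5 and 6 with 50 reads), 1 and 0 for H3K27me3 (8 and 8), and 0 and 1 for H3K9me3 (3 and 13), with fewer genes left to count. No share of autosomal genes at 200 reads is set beside these counts. Merging genes less than 100 kb apart gave 80 clusters and less than 500 kb apart 33, in place of 51. No paired analysis was possible because there is 1 library per mark and genotype. Depth sets a wide interval on single genes, above all in Vmn1r, and no replicate shows how much libraries of 1 genotype differ.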
